A study of Mus musculus with 24 samples.

Results

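The solute carrier genes of a mouse hepatic stellate cell line were described across 8 treatment groups. They were taken as the protein-coding genes whose symbol is Slc followed by a number. They were chosen by their measured level: a gene was kept where its FPKM, a fragment count scaled to transcript length and library size, was 2 or more in at least 3 of the 24 libraries. Of 324 protein-coding Slc genes among the 16604 genes used, 165 were kept, 155 stayed under the level, and Slc2a1, Slc3a2, Slc7a5 and Slc7a11 were not included. The level was read over all groups together, and 146 of the 165 genes reached it in all 24 libraries. The other 19 reached it only in some, so part of their difference between groups follows from how they were chosen. Just inside the level were Slc7a7 with a third-highest value of 2.03 and Slc4a11 with 2.19. Just outside were Slc25a47 with 1.89 and Slc43a2 with 1.74.

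The cells were EMS404, a hepatic stellate line from the liver of a C57Bl6 mouse, made immortal with SV40 and carrying human TLR4. All 8 groups share that genotype and come from 1 line. They were a vehicle group (DMSO in the library names, untreated in the labels), a group given transforming growth factor beta (TGFb, 10 ng/mL), and groups given SB431542, SR9011 or CLK8, each without and with TGFb. SB431542 inhibits the TGFb receptor, SR9011 is an agonist of the clock repressor REV-ERB alpha, and CLK8 disrupts the dimer of the clock activators CLOCK and BMAL1. Compounds were given for 24 h and then for another 24 h together with TGFb. The labels state no dose for the compounds and do not say how long cells without TGFb were cultured. Each group had 3 libraries, which the submitters describe as biological triplicates.

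Deposited FPKM summed to 504304 to 610449 per library, and steps between low values put the relative depths of the libraries between 0.928 and 1.026. Pdgfra, Pdgfrb, Hand2, Lhx2 and Col1a1 were present in every library, whereas the stellate markers Des, Reln, Hgf and Ngfr were below 0.56 FPKM in all of them. Summed markers of hepatocytes reached at most 0.25 FPKM, those of endothelial cells at most 0.74 and those of macrophages at most 3.15. Only 4 of 6 listed hepatocyte genes and 3 of 6 listed macrophage genes were among the genes used. Cholangiocyte markers summed to 8.08 to 10.5 FPKM in vehicle, 7.20 to 8.43 with TGFb, 8.92 to 11.4 with SB431542 and 4.04 to 4.67 with SR9011. They summed to 4.43 to 5.13 with CLK8, 9.33 to 9.98 with SB431542+TGFb, 2.51 to 3.12 with SR9011+TGFb and 3.73 to 5.39 with CLK8+TGFb. A 4-gene list of mesothelial markers summed to 305 to 327 FPKM in vehicle, 150 to 160 with TGFb, 398 to 419 with SB431542, 61.5 to 91.9 with SR9011 and 83.6 to 103 with CLK8. The mesothelial sum was 320 to 383 with SB431542+TGFb, 62.7 to 77.0 with SR9011+TGFb and 58.8 to 72.0 with CLK8+TGFb. Of 11 listed stellate genes, 10 were among the genes used and Lrat was not. This 10-gene stellate list summed to 1892 to 2009 FPKM in vehicle, 2632 to 3055 with TGFb and 454 to 608 with SR9011. It summed to 1508 to 1601 with SB431542, 1422 to 1473 with CLK8 and 1177 to 1244 with SR9011+TGFb. With SB431542+TGFb it was 1742 to 1881, and with CLK8+TGFb 2388 to 2789. Most of each sum is the matrix gene Col1a1, which alone ran from 342 to 2617 FPKM. These lists moved with the treatments that follow, and their part in the Slc results was not tested. In bulk RNA, fewer cells of a type and less RNA per cell cannot be told apart.

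Solute carriers are membrane proteins that move amino acids, sugars, nucleosides, ions, metals, vitamins and metabolites across the plasma membrane and the membranes of organelles. Most work as exchangers, as cotransporters driven by an ion gradient, or as facilitators, and the numbered subfamilies group proteins of related sequence. Amino acid carriers feed protein synthesis, and in cells that make matrix they supply glycine and proline precursors and arginine. The Slc25 subfamily sits almost wholly in the inner mitochondrial membrane. Slc35 carriers bring nucleotide sugars and related substrates into the Golgi and the endoplasmic reticulum, and Slc30 and Slc39 proteins lower and raise cytosolic zinc.

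The 165 genes belonged to 41 subfamilies, which were sorted into 11 role classes by subfamily number. The mean FPKM over all libraries ran from 1.003 for the lowest gene to 371 for Slc25a4, the mitochondrial ADP/ATP carrier, with a median of 13.0. FPKM is per transcript length, so these levels can be compared between genes. Together the genes held between 0.831% and 0.964% of all FPKM in a library. The largest subfamily was Slc25 with 35 genes from 2.09 to 371 FPKM. Slc35 followed with 20 genes from 2.83 to 65.6, and the zinc importers of Slc39 with 10 genes from 5.39 to 150. Slc38a2, a sodium-coupled carrier of small neutral amino acids, was the highest amino acid carrier at 169 FPKM. Slc43a3, which by subfamily falls among amino acid carriers but is known as a purine nucleobase transporter, followed at 165.

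The size of the variation differed widely between the genes. The ratio of the highest to the lowest group mean had a median of 1.68 and ran from 1.08 for Slc35e2 to 11.5 for Slc46a3. It was over 2 for 57 genes and over 4 for 11 genes. Among the latter, Slc46a3, Slc9a9, Slc44a3 and Slc7a7 had lowest group means of 0.333, 0.497, 0.54 and 0.497 FPKM. Part of their range thus follows from how they were chosen. SR9011 alone was the highest group for 69 of the 165 genes, and TGFb alone was the lowest for 58. With vehicle, the gene was highest in 7 cases and lowest in 24. These ratios and orders were not counted over all genes tested, of which SR9011 changed 69.1% and TGFb lowered 34.4%. Whether they are particular to the Slc genes was not tested. The heat map of the named genes shows each treatment group beside vehicle.

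**Figure D1:**
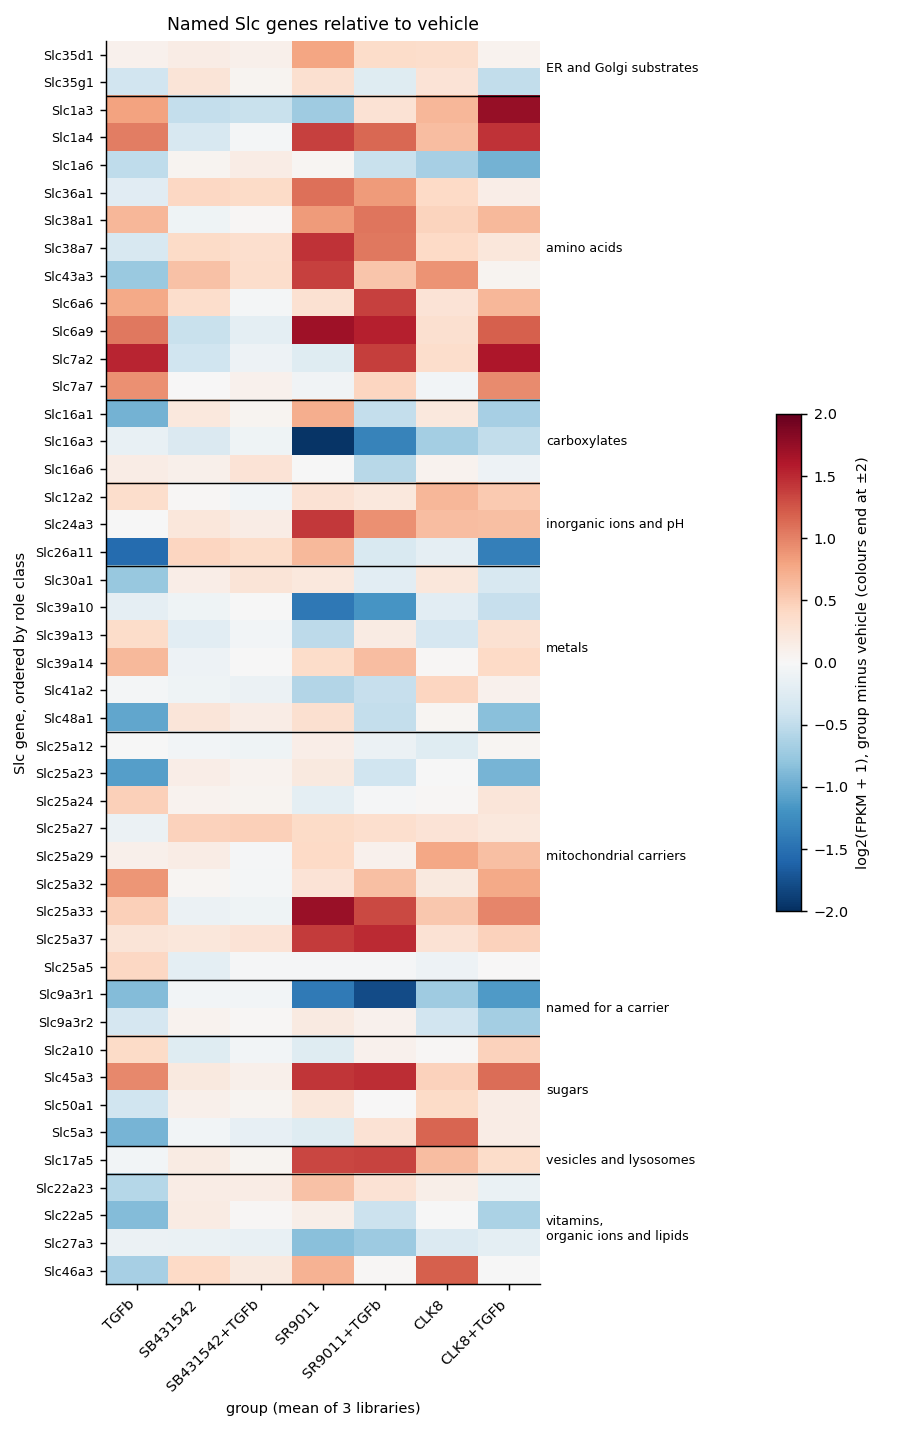
Difference from the vehicle group in mean log2(FPKM + 1) for the Slc genes named by size of change, 1 row per gene and 1 column per treatment group of 3 libraries, with horizontal lines between role classes. Red is higher and blue lower than vehicle. Slc7a2, Slc1a3 and Slc6a9 are red with TGFb, Slc26a11 and Slc48a1 blue, and the SB431542+TGFb column is pale throughout.

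Tests were made with limma on log2(FPKM + 1) over all 11297 genes with 1 FPKM or more in 3 libraries, and a change was called at a Benjamini-Hochberg adjusted p under 0.05. Differences between groups are given as log2 fold changes on that scale with their standard errors, and they understate the change of genes near 1 FPKM. TGFb against vehicle changed 99 of the 165 genes, 45 higher and 54 lower, which is 60.0% beside 54.9% of all genes tested, 20.5% higher and 34.4% lower. SB431542 against vehicle changed 39, 32 higher and 7 lower, beside 16.9% of all genes, 11.9% higher and 5.05% lower. SR9011 against vehicle changed 128, with 106 higher and 22 lower. That is 77.6% of the Slc genes beside 69.1% of all genes, and 40.7% of all genes were called higher and 28.3% lower. CLK8 against vehicle changed 98, with 85 higher and 13 lower, beside 43.9% of all genes, 30.3% higher and 13.6% lower. The last 3 comparisons and the first use the same 3 vehicle libraries.

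The median log2 fold change of the Slc genes was 0.28 with SR9011 beside 0.06 over all genes tested, and 0.18 with CLK8 beside 0.07. With TGFb it was -0.01 beside -0.05, and with SB431542 it was 0.06 beside 0.03. Most changes were small. A called change of at least 2-fold was seen in 19 of the 165 Slc genes with SR9011, 6 with TGFb and 2 with CLK8. The counts among all 11297 genes tested were 672 with SR9011, 358 with TGFb and 145 with CLK8. How the calls divide into higher and lower depends on the scaling, although no Slc gene called under both scalings changed direction. With values rescaled to TPM the split for TGFb was 53 higher and 41 lower, and with quantile normalization it was 58 and 46. For SB431542 quantile normalization gave 19 higher and 10 lower, and 25 genes were called when vehicle replicate 1 was left out.

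In the presence of TGFb, the same compounds were compared with TGFb alone, and these 3 comparisons share the TGFb libraries with each other and with TGFb against vehicle. SB431542+TGFb changed 109 Slc genes, 69 higher and 40 lower, beside 59.7% of all genes, 38.3% higher and 21.4% lower, and quantile normalization gave 54 higher and 52 lower. SR9011+TGFb changed 127, 101 higher and 26 lower, beside 60.8% of all genes, 36.8% higher and 24.0% lower. CLK8+TGFb changed 86, 72 higher and 14 lower, beside 41.1% of all genes, 27.7% higher and 13.3% lower, and quantile normalization gave 50 higher and 23 lower. The strip plot by role class shows the spread of single genes within each class.

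**Figure D2:**
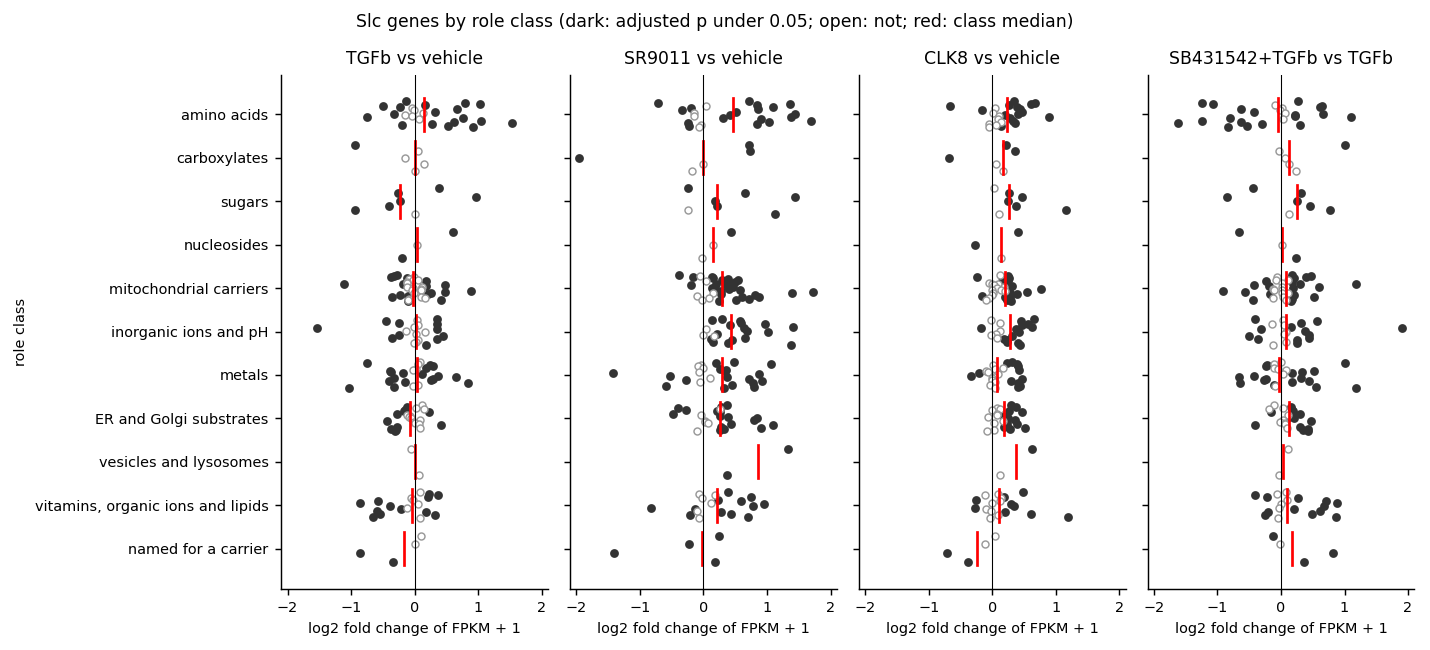
Log2 fold change of FPKM + 1 for each of the 165 Slc genes, in rows by role class and in 4 panels by comparison. Filled points passed an adjusted p under 0.05, open points did not, and the red bar is the class median. With SR9011 the ion carriers lie almost wholly to the right of 0, with a class median of 0.43.

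The promoters of the Slc genes were searched for 4 short letter runs, on both strands, in the RefSeq windows (assembly GRCm38.p6) from 250 bases before to 50 after each gene's start. Windows were found for 128 of the 165 genes, 174 windows in all. The run TGATGNAA, the core of the element that ATF4 and C/EBP factors bind in amino acid response genes, was in the windows of 4 genes, Slc1a4, Slc50a1, Slc7a7 and Slc9a9. It is in 3.97% of all 32851 windows of the table and in 2.21% of those of the genes tested. CACGTG, the E-box bound by CLOCK and BMAL1 and by other basic helix-loop-helix factors, was in the windows of 25 genes. It was found in 15.5% of the Slc windows, 7.15% of all windows and 10.1% of those of genes tested. AGGTCA, the hexamer read by REV-ERB and other nuclear receptors, was in windows of 17 genes, in 12.1% of Slc windows and 12.2% of those of genes tested. GTCTAGAC, a palindrome bound by SMAD proteins, was in no Slc window and in 0.213% of all windows.

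The stretches shown here belong to genes with large changes in the results that follow, and the letters of each run are in capitals, 5′ to 3′ on the gene's strand, GRCm38.p6. Slc1a4 carries the amino acid response letters, in reverse complement, in a run that begins 4 bases before its start and extends past it. Slc25a33, Slc38a7 and Slc36a1 carry E-boxes, and Slc36a1 has a pair of them. Slc45a3 carries the nuclear receptor hexamer. Slc36a1 holds it too, in reverse complement as TGACCT, overlapping its first E-box, and there only the E-boxes are in capitals. A match is a run of letters and not a measured site.
Slc1a4, chr11:20332709-20332757, minus strand: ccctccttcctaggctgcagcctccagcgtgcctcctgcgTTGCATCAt
Slc25a33, chr4:149774263-149774315, minus strand: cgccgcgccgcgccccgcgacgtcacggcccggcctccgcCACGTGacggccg
Slc38a7, chr8:95853495-95853565, minus strand: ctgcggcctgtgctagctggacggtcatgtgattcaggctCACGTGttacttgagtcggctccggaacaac
Slc36a1, chr11:55204269-55204344, plus strand: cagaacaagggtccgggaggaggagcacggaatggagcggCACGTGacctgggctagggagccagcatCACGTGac
Slc45a3, chr1:131970454-131970524, plus strand: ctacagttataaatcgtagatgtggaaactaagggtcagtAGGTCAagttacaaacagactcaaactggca

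Among the 128 Slc genes with a window, those with an E-box were called lower with TGFb in 14 of 25 cases, beside 31 of 103 without one. Genes with an E-box were called higher with TGFb in 5 of 25 cases, beside 27 of 103. With SB431542 they were called higher in 11 of 25 cases, beside 11 of 103. With SR9011 the counts of called rises were 20 of 25 and 57 of 103, and with CLK8 16 of 25 and 47 of 103. These 4 comparisons share the vehicle libraries, the split was made with the results known, and no test was made of it. Of the 17 genes with the hexamer, 14 were called higher with SR9011, beside 63 of the 111 without it. With CLK8 the called rises were 9 of 17 and 54 of 111. With TGFb they were 5 and 27, and with SB431542 they were 4 and 18. Called falls with TGFb were 8 of 17 and 37 of 111. Of the 4 genes with TGATGNAA, 3 were called higher with each of TGFb, SR9011 and CLK8, beside 29, 74 and 60 of 124 without it. Among the 4, called falls were 1 with TGFb and 1 with SB431542. Over all genes tested, 34.4% were lower and 20.5% higher with TGFb. With SB431542, SR9011 and CLK8, 11.9%, 40.7% and 30.3% were higher. These splits were not tested either, and none was made over all genes tested.

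TGFb raised 12 and lowered 6 of the 24 amino acid carriers, beside 20.5% of all genes called higher and 34.4% called lower. The median log2 fold change was 0.15, beside -0.05 over all genes. SR9011 raised 14 and lowered 5, CLK8 raised 14 and lowered 2, and SB431542 raised 7 and lowered 4. Over all genes 40.7%, 30.3% and 11.9% were called higher in these 3 comparisons, and 28.3%, 13.6% and 5.05% were called lower. The summed FPKM of the class was 657 ± 3.01 (SD, n = 3) in vehicle, 776 ± 1.42 with TGFb, 1114 ± 34.8 with SR9011 and 867 ± 13.1 with CLK8. The class was set by subfamily number, so its counts and sums include the purine nucleobase transporter Slc43a3. That gene alone had means of 116 FPKM in vehicle, 68.6 with TGFb and 301 with SR9011, so the sums are not of amino acid transport only.

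Cationic amino acid carriers of subfamily Slc7 bring arginine and lysine into the cell. Slc7a2 measured 8.66, 8.95 and 8.43 FPKM in the vehicle libraries and 27.9, 27.2 and 25.9 with TGFb, a log2 fold change of 1.53 ± 0.09 (limma adjusted p = 2.8e-12). With SB431542+TGFb it measured 8.04, 8.14 and 7.96, with SR9011+TGFb 26.7, 21.5 and 24.6, and with CLK8+TGFb 28.5, 28.3 and 28.9. The 9 libraries with TGFb and no SB431542 thus lay between 21.5 and 28.9, and all 15 others at 11.9 or below. Slc7a1, the ubiquitous carrier of the same substrates, was at 32.2, 28.5 and 29.7 FPKM in vehicle, at 47.1, 45.7 and 47.4 with TGFb (0.62 ± 0.10) and at 52.8, 66.5 and 70.1 with SR9011 (1.03 ± 0.10). Its 3 SR9011 libraries lay above all TGFb libraries, whereas those of Slc7a2 measured only 5.44, 8.56 and 7.86. Slc7a6 and Slc7a7, the light chains that exchange cationic for neutral amino acids, rose with TGFb by log2 fold changes of 0.52 ± 0.06 and 0.92 ± 0.09. Slc7a7 was near 0.6 FPKM in vehicle and 1.78 to 2.11 with TGFb, and its exons overlap those of Oxa1l.

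Glycine and small neutral amino acids enter through Slc6a9, Slc1a4 and Slc1a5. Slc6a9, the glycine transporter GLYT1, was at 17.7, 16.4 and 17.7 FPKM in vehicle, 35.3, 36.9 and 38.1 with TGFb, and 59.7, 56.2 and 58.3 with SR9011. The log2 fold changes were 1.05 ± 0.10 with TGFb and 1.69 ± 0.10 with SR9011, and the 3 groups did not overlap. SB431542 alone lowered it to 13.6, 10.6 and 13.4 (-0.44 ± 0.10, limma adjusted p = 0.0027). Exons of Slc6a9 overlap Ccdc24 and B4galt2, whose vehicle and TGFb means were 2.64 and 2.60 for Ccdc24 and 18.0 and 18.1 for B4galt2. Slc1a4, the neutral amino acid exchanger ASCT1 whose promoter stretch is shown above, was at 12.7, 11.7 and 12.5 FPKM in vehicle and 26.3, 26.3 and 26.1 with TGFb (1.03 ± 0.08). It reached 33.0, 32.3 and 34.7 with SR9011 (1.36 ± 0.08) and 21.7, 16.9 and 19.96 with CLK8 (0.62 ± 0.08). None of these 4 groups overlapped another. Slc1a5, the glutamine carrier ASCT2, rose with SR9011 by 0.84 ± 0.05, from 67.3, 71.3 and 72.3 to 133, 126 and 122 FPKM.

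Subfamily Slc1 also holds glutamate transporters. Slc1a3, the glutamate and aspartate transporter GLAST, was at 7.05, 6.47 and 6.43 FPKM in vehicle, 12.5, 12.4 and 12.0 with TGFb, 11.2, 11.3 and 10.8 with CLK8 and 24.3, 24.5 and 25.1 with both. Its interaction of CLK8 with TGFb was 0.28 ± 0.13 (limma adjusted p = 0.19). SR9011 lowered it to 3.44, 4.27 and 3.36 (-0.71 ± 0.09), SB431542 lowered it to 3.96, 4.53 and 5.06 (-0.48 ± 0.09), and neither group overlapped vehicle. Slc1a6, the transporter EAAT4, fell with TGFb (-0.50 ± 0.09) and with CLK8 (-0.66 ± 0.09), from 10.9, 10.7 and 9.99 to 6.64, 7.12 and 7.61 and to 7.10, 5.19 and 6.69 FPKM. With SR9011 it measured 11.9, 10.4 and 10.3.

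Of the 6 sodium-coupled carriers of subfamily Slc38, TGFb raised 2, Slc38a1 and Slc38a2, and lowered 1. It raised 20.5% and lowered 34.4% of all genes. Slc38a1 was at 19.0, 17.1 and 17.0 FPKM in vehicle, 28.7, 28.1 and 28.6 with TGFb (0.66 ± 0.08) and 27.7, 35.9 and 35.6 with SR9011 (0.86 ± 0.08). Slc38a2 rose by 0.33 ± 0.07 with TGFb, 0.52 ± 0.07 with SR9011 and 0.48 ± 0.07 with CLK8. Slc6a6, the taurine carrier, rose with TGFb from 45.6, 43.6 and 44.0 to 76.3, 73.3 and 77.3 FPKM (0.76 ± 0.07). With SR9011+TGFb it reached 120, 109 and 118, above every library of the other 7 groups.

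The lysosomal amino acid carriers Slc38a7 and Slc36a1 moved the other way with TGFb. Slc38a7, which exports glutamine and asparagine from lysosomes, was at 12.4, 11.8 and 12.5 FPKM in vehicle and 9.30, 10.5 and 9.09 with TGFb (-0.32 ± 0.07). It was at 35.8, 33.0 and 36.4 with SR9011 (1.45 ± 0.07, limma adjusted p = 5.7e-14) and 18.2, 14.5 and 16.2 with SB431542 (0.38 ± 0.07). Slc36a1, a proton-coupled carrier, rose with SR9011 from 5.84, 5.23 and 5.73 to 12.2, 13.4 and 13.8 FPKM (1.09 ± 0.06), and with SB431542 by 0.41 ± 0.06. Its fall with TGFb, -0.23 ± 0.06, did not pass the threshold on TPM. Slc43a3 was at 106, 123 and 119 FPKM in vehicle, 67.0, 69.4 and 69.3 with TGFb (-0.75 ± 0.07), 309, 293 and 301 with SR9011 (1.37 ± 0.07) and 208, 219 and 223 with CLK8 (0.90 ± 0.07). All 9 libraries of Slc43a3 with a compound and no TGFb lay above vehicle, and the 3 with TGFb alone lay below it.

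**Figure D3:**
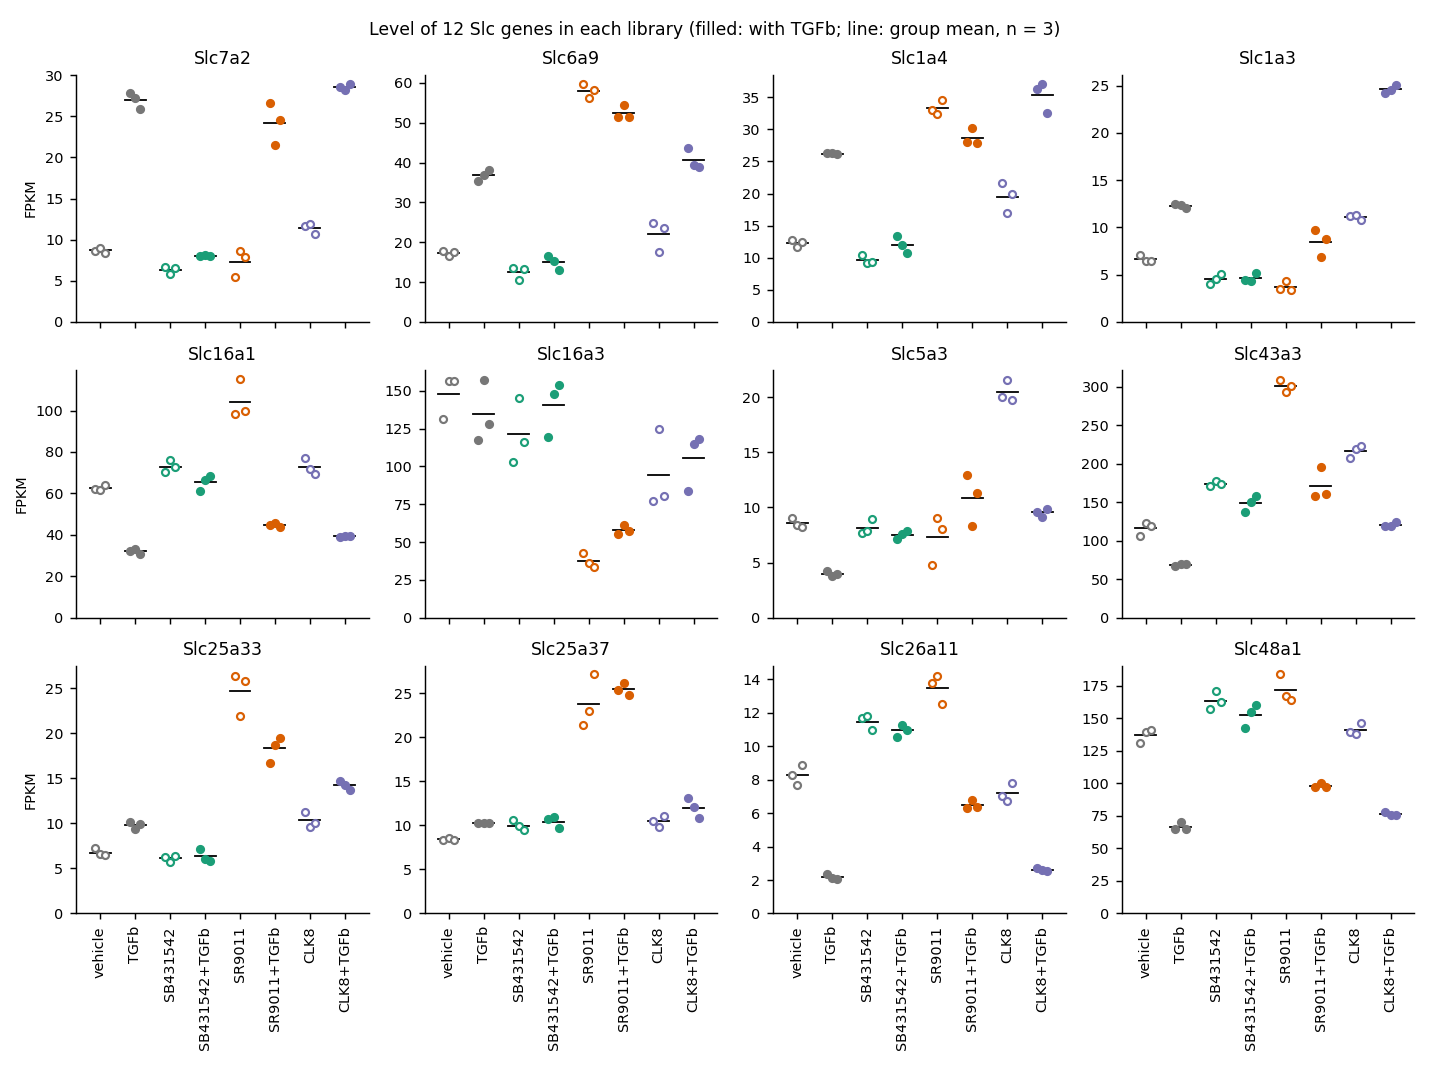
FPKM of 12 Slc genes in each of the 24 libraries, in 1 panel per gene with the 8 groups on the horizontal axis. Each point is a library, filled where TGFb was given, and the line is the mean of 3. Slc7a2 is high in the filled grey, orange and purple points and stays at 8.14 or below in both green groups, and Slc16a3 is lowest in the SR9011 groups.

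The 5 genes of subfamily Slc16, classed as carboxylate carriers by subfamily number alone, split between their 2 best-known members. Slc16a1, the lactate and pyruvate carrier MCT1, was at 61.9, 61.9 and 64.1 FPKM in vehicle and 32.3, 33.2 and 30.7 with TGFb (-0.94 ± 0.05, limma adjusted p = 1.2e-12). SR9011 raised it to 98.1, 115 and 99.6 (0.72 ± 0.05). Slc16a3, the lactate exporter MCT4 of glycolytic cells, was at 132, 156 and 157 FPKM in vehicle and 118, 157 and 128 with TGFb, which overlapped (-0.15 ± 0.18, limma adjusted p = 0.50). It fell to 43.0, 36.3 and 33.3 with SR9011 (-1.96 ± 0.18), the largest fall of any of the 165 genes in that comparison, and to 77.2, 125 and 80.4 with CLK8 (-0.68 ± 0.18). Vehicle held more Slc16a3 than Slc16a1 and SR9011 held less in all 3 libraries. Bsg, the basigin chaperone that both need to reach the membrane, had group means of 1406 FPKM in vehicle, 929 with TGFb and 531 with SR9011 (-1.40, limma adjusted p = 2.4e-09).

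Of the 7 genes classed as sugar carriers by subfamily number alone, among them Slc5a6, TGFb raised 2 and lowered 4. SR9011 raised 5 and lowered 1, and CLK8 raised 5. Over all genes 20.5%, 40.7% and 30.3% were called higher in these comparisons, and 34.4%, 28.3% and 13.6% were called lower. Slc5a3, the sodium-coupled importer of the osmolyte myo-inositol, was at 9.03, 8.36 and 8.23 FPKM in vehicle and 4.26, 3.75 and 3.94 with TGFb (-0.94 ± 0.14). CLK8 raised it to 20.03, 21.5 and 19.8 (1.17 ± 0.14), whereas the SR9011 libraries measured 4.75, 9.07 and 8.06, with replicate 1 apart from the other two. Slc5a3 shares exons with Mrps6, whose group means were 94.4 FPKM in vehicle, 68.0 with TGFb and 153 with CLK8, in the same order. The labels do not say whether fragments were counted by strand. Slc45a3, of a subfamily of proton-coupled sugar carriers, rose from 2.63, 2.31 and 2.91 FPKM to 5.84, 5.93 and 6.25 with TGFb (0.96 ± 0.07) and to 9.72, 8.39 and 8.22 with SR9011 (1.43 ± 0.07). Slc2a10, the facilitator GLUT10, rose with TGFb (0.39 ± 0.05) and fell with SB431542 (-0.24 ± 0.05) and with SR9011 (-0.24 ± 0.05), at levels of 3.99 to 7.10 FPKM in these 4 groups. Among the 3 nucleoside carriers, Slc29a1, the equilibrative transporter ENT1, rose from 70.3, 74.1 and 72.4 FPKM to 109, 109 and 114 with TGFb (0.61 ± 0.04). It was at 104, 95.4 and 95.1 with SR9011 (0.44 ± 0.04) and 99.7, 91.7 and 96.6 with CLK8 (0.40 ± 0.04), and no library of these groups fell to the vehicle level.

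The 35 mitochondrial carriers of Slc25 were raised in 26 cases and lowered in 3 by SR9011, with a median log2 fold change of 0.29. CLK8 raised 19 and lowered 2, SB431542 raised 8, and TGFb raised 8 and lowered 10. Over all genes 40.7% were higher with SR9011, 30.3% with CLK8 and 11.9% with SB431542, and with TGFb 20.5% were higher and 34.4% lower. The shares lower were 28.3% with SR9011, 13.6% with CLK8 and 5.05% with SB431542. Slc25a4, the most abundant, measured 430, 393 and 407 FPKM in vehicle and 376, 365 and 398 with TGFb. That difference of -0.11 ± 0.05 (limma adjusted p = 0.049) did not pass the threshold when vehicle replicate 1 or 3, or TGFb replicate 1 or 2, was left out, and it was slightly positive under quantile normalization. Slc25a5, the second ADP/ATP carrier, rose with TGFb from 285, 253 and 249 to 364, 321 and 359 FPKM (0.41 ± 0.08). Slc25a3, the phosphate carrier, was called with SR9011 at 0.20 ± 0.05.

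Slc25a33, which carries pyrimidine nucleotides, was at 7.21, 6.57 and 6.47 FPKM in vehicle and 26.4, 21.9 and 25.8 with SR9011 (1.73 ± 0.08, limma adjusted p = 4.1e-15), the largest rise of the 165 genes in that comparison. TGFb raised it to 10.2, 9.40 and 9.87 (0.48 ± 0.08) and CLK8 to 11.3, 9.58 and 10.1 (0.54 ± 0.08). Slc25a37, the iron importer mitoferrin 1, was at 8.35, 8.55 and 8.32 FPKM in vehicle, 21.3, 23.0 and 27.1 with SR9011 (1.39 ± 0.07) and 25.4, 26.1 and 24.9 with SR9011+TGFb. In the other 6 groups it stayed between 8.32 and 13.1. Slc25a39, needed for glutathione import into mitochondria, rose with SR9011 by 0.80 ± 0.06, from 115, 114 and 115 to 214, 194 and 197 FPKM.

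With TGFb the mitochondrial folate carrier Slc25a32 and the ATP-magnesium/phosphate carrier Slc25a23 moved in opposite directions. Slc25a32 rose from 7.18, 6.66 and 6.61 to 13.6, 13.4 and 13.1 FPKM (0.88 ± 0.08). Slc25a23 fell from 15.2, 16.0 and 15.6 to 6.42, 6.65 and 7.03 (-1.11 ± 0.05, limma adjusted p = 2.4e-14), while its relative Slc25a24 rose from 21.5, 20.04 and 20.8 to 31.2, 28.5 and 28.3 (0.48 ± 0.07). Neither Slc25a32 nor Slc25a23 overlapped vehicle in any TGFb library. Slc25a1, the citrate exporter, fell with TGFb (-0.28 ± 0.05) and SR9011 (-0.38 ± 0.05). Slc25a29, a carrier of basic amino acids, rose with CLK8 from 1.55, 1.65 and 1.38 to 3.77, 3.04 and 3.15 FPKM (0.77 ± 0.09).

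The 20 carriers of inorganic ions and pH were raised in 17 cases by SR9011, and raised in 13 and lowered in 1 by CLK8. TGFb raised 6 and lowered 5. Over all genes 40.7%, 30.3% and 20.5% were higher in these comparisons, and 28.3%, 13.6% and 34.4% were lower. Slc26a11, a sulfate and anion carrier, showed the largest fall with TGFb of the 165 genes, from 8.30, 7.66 and 8.90 to 2.36, 2.14 and 2.06 FPKM (-1.54 ± 0.06, limma adjusted p = 1.2e-15). It was higher than vehicle with SB431542 at 11.7, 11.8 and 10.9 (0.43 ± 0.06) and with SR9011 at 13.8, 14.2 and 12.5 (0.64 ± 0.06), and the 4 groups did not overlap. Slc24a3, a potassium-dependent exchanger of sodium for calcium, measured 11.7, 13.4 and 13.0 FPKM in vehicle and 12.3, 12.9 and 12.6 with TGFb (-0.01 ± 0.06). It rose to 37.3, 33.3 and 35.5 with SR9011 (1.41 ± 0.06) and to 21.1, 19.2 and 19.9 with CLK8 (0.62 ± 0.06). Slc20a1, a sodium-phosphate cotransporter, rose from 19.97, 19.9 and 19.97 to 41.3, 35.2 and 44.6 FPKM with SR9011 (0.97 ± 0.07). Slc12a2, the cotransporter NKCC1, rose with CLK8 (0.66 ± 0.11). Its SR9011 libraries measured 7.94, 13.7 and 12.7 FPKM beside 9.67, 8.31 and 8.80 in vehicle and overlapped them.

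Among the 24 metal carriers, TGFb raised 9 and lowered 9, SR9011 raised 14 and lowered 4, and CLK8 raised 10 and lowered 2. The shares over all genes were 20.5% and 34.4% with TGFb, 40.7% and 28.3% with SR9011, and 30.3% and 13.6% with CLK8, in the same order. Slc48a1, which releases heme from endolysosomes, fell with TGFb from 131, 140 and 141 to 64.7, 70.0 and 64.5 FPKM (-1.04 ± 0.05, limma adjusted p = 6.2e-14). Slc40a1, the iron exporter ferroportin, rose from 3.90, 3.85 and 4.16 to 8.25, 7.66 and 7.73 (0.84 ± 0.08) and with SR9011 to 7.14, 7.71 and 7.88 (0.79 ± 0.08). With SR9011+TGFb it measured 16.8, 12.9 and 14.6, above all libraries of the other groups, and its interaction was 0.03 ± 0.11. Slc11a2, the divalent metal importer DMT1, was called with SR9011 (0.47 ± 0.06) and CLK8 (0.31 ± 0.06) but measured 0.08 ± 0.06 with TGFb. Slc48a1 shares exons with Hdac7, whose means were 39.8 FPKM in vehicle and 34.9 with TGFb.

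The zinc carriers moved both ways. Slc30a1, the exporter at the plasma membrane, fell with TGFb from 3.38, 3.27 and 3.41 to 1.45, 1.68 and 1.60 FPKM (-0.76 ± 0.08). The importer Slc39a14 rose from 9.52, 8.67 and 9.37 to 15.4, 14.6 and 14.9 (0.65 ± 0.06). The importer Slc39a10 was at 17.3, 16.6 and 16.2 FPKM in vehicle and 4.75, 6.39 and 5.70 with SR9011 (-1.43 ± 0.07, limma adjusted p = 3.3e-14), and at 7.24, 6.64 and 6.58 with SR9011+TGFb. All 18 libraries without SR9011 lay at 11.5 or above. Of the 10 Slc39 genes, TGFb raised 5 and lowered 5, and of the 6 Slc30 genes it raised 3 and lowered 1. Over all genes, 20.5% were called higher and 34.4% lower with TGFb. Slc41a2, a magnesium carrier, fell with SR9011 (-0.58 ± 0.08) and rose with CLK8 (0.44 ± 0.08), from 5.13, 5.45 and 4.97 FPKM to 2.82, 3.65 and 2.96 and to 7.03, 8.32 and 6.80.

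The class of the endoplasmic reticulum and Golgi held 23 carriers, 20 of them in Slc35. TGFb raised 2 and lowered 9 of the 23, SR9011 raised 14 and lowered 3, and CLK8 raised 13. Over all genes 20.5%, 40.7% and 30.3% were called higher in these comparisons, and 34.4%, 28.3% and 13.6% were called lower. Slc35d1, which brings nucleotide sugars for chondroitin sulfate into the endoplasmic reticulum, rose with SR9011 from 2.13, 2.22 and 2.22 to 4.38, 4.58 and 4.63 FPKM (0.79 ± 0.07) and with CLK8 to 3.27, 2.91 and 3.10 (0.36 ± 0.07). Slc33a1, the acetyl-CoA carrier of the endoplasmic reticulum, rose with both by 0.36 ± 0.06 and 0.30 ± 0.06. Slc35g1 fell with TGFb (-0.38 ± 0.06). Slc17a5, the lysosomal sialic acid exporter sialin, was at 3.74, 4.36 and 4.04 FPKM in vehicle and 10.9, 11.4 and 13.0 with SR9011 (1.34 ± 0.08). Its TGFb libraries at 3.57, 4.27 and 3.74 overlapped vehicle, and with SR9011+TGFb it was at 12.0, 11.8 and 11.9.

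Of the 18 carriers of vitamins, organic ions and lipids, TGFb raised 5 and lowered 7, and SR9011 raised 9 and lowered 3, beside 20.5% higher and 34.4% lower over all genes with TGFb and 40.7% and 28.3% with SR9011. Slc22a5, the carnitine importer OCTN2, fell with TGFb from 11.3, 11.4 and 11.7 to 5.64, 6.26 and 5.62 FPKM (-0.87 ± 0.06). Slc44a1, a choline carrier, fell from 33.0, 33.9 and 33.8 to 21.9, 22.6 and 21.4 (-0.59 ± 0.08). Slc46a3, a lysosomal carrier, had the widest range of all, at 1.03, 1.29 and 1.02 FPKM in vehicle, 0.39, 0.30 and 0.31 with TGFb (-0.66 ± 0.08) and 3.93, 3.49 and 4.09 with CLK8 (1.19 ± 0.08). Slc46a3, Slc7a7, Slc25a29 and Slc30a1 are among the 19 genes that reached 2 FPKM only in some libraries. Slc19a2, a thiamine carrier, rose with SR9011 (0.74 ± 0.06), and Slc27a3, of the fatty acid transport family, fell with it (-0.83 ± 0.09).

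The rule also took in 4 genes that are named for a carrier without being one. Slc9a3r1, the scaffold protein NHERF1, was at 449, 393 and 407 FPKM in vehicle, the highest group mean of the 165 genes there, with Slc25a4 next. It fell to 207, 227 and 250 with TGFb (-0.87 ± 0.07), to 170, 164 and 137 with SR9011 (-1.41 ± 0.07) and to 257, 235 and 267 with CLK8 (-0.72 ± 0.07). None of these 3 groups overlapped vehicle, whereas SB431542 at 416, 404 and 386 did. With SR9011+TGFb it was lowest, at 123, 114 and 123.

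The response of the Slc genes to TGFb was then compared without and with each compound, using pairs of groups that share no library. With SB431542 present, the median absolute log2 difference made by TGFb was 0.07, beside 0.18 without compound. It was 0.19 with SR9011 and 0.20 with CLK8. Across the 165 genes, which are not independent replicates, the TGFb difference without compound and with CLK8 had a Pearson r of 0.91 and a Spearman rho of 0.86. With SR9011 r was 0.63 and rho 0.52, and with SB431542 r was 0.43 and rho 0.44. The scatter plot of the TGFb differences shows the points along the line of equality for CLK8, a wider cloud for SR9011 and a flat band for SB431542.

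**Figure D4:**
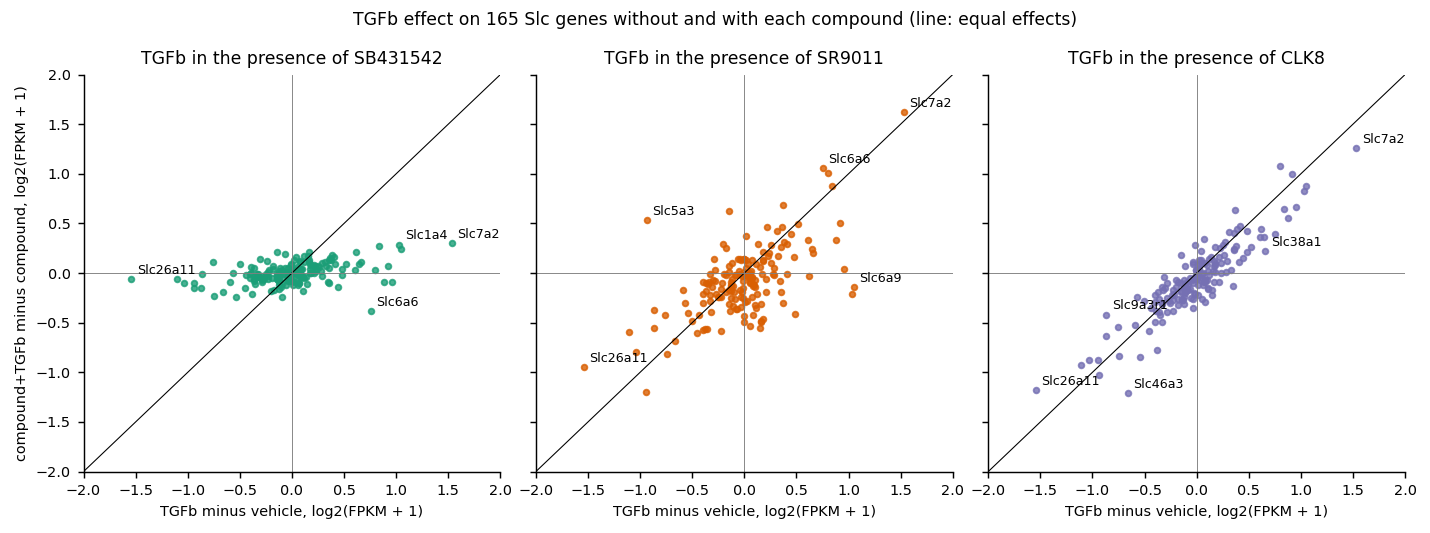
Difference made by TGFb in mean log2(FPKM + 1) for each of the 165 Slc genes, without compound on the horizontal axis and with SB431542, SR9011 or CLK8 on the vertical axis. Each point is a gene and the diagonal marks equal differences. Slc7a2 lies near the diagonal with SR9011 and CLK8 and close to 0 on the vertical axis with SB431542, and Slc5a3 changes sign with SR9011.

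An interaction was defined as the TGFb difference with a compound minus the TGFb difference without it. For SB431542 it was called in 65 Slc genes, 37 higher and 28 lower, beside 34.3% of all genes, 21.5% higher and 12.8% lower. For SR9011 it was called in 68, 26 higher and 42 lower, beside 31.9%, 16.6% higher and 15.3% lower. For CLK8 it was called in 17, 7 higher and 10 lower, beside 7.97%, 4.58% higher and 3.39% lower. On TPM the CLK8 interaction was called in 8 genes higher and 3 lower. It was called in 10 genes without CLK8+TGFb replicate 2 and in 11 without CLK8+TGFb replicate 3, CLK8 replicate 1, vehicle replicate 2 or vehicle replicate 3, and in 28 when the spread was taken from the 4 groups alone. Of the 24 amino acid carriers, 10 had a lower SB431542 interaction, beside 12.8% of all genes, among them Slc7a2 at -1.23 ± 0.13 and Slc6a6 at -1.14 ± 0.09. In the SB431542 groups Slc6a6 measured 57.3, 55.2 and 57.3 FPKM without and 43.5, 42.4 and 43.2 with TGFb, the reverse of its order without compound.

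Several carriers that rose with TGFb and with SR9011 were not higher still with both. Slc1a4 was at 28.0, 30.2 and 27.8 FPKM with SR9011+TGFb, beside 33.0, 32.3 and 34.7 with SR9011 alone, an interaction of -1.24 ± 0.11 (limma adjusted p = 1.9e-08). Slc6a9 was at 51.5, 54.5 and 51.4 with both, an interaction of -1.19 ± 0.14, and Slc25a33 at 16.7, 18.7 and 19.5, an interaction of -0.89 ± 0.11. In all 3 genes the SR9011+TGFb libraries lay below every SR9011 library and above every vehicle library. The 35 mitochondrial carriers had 13 lower and 3 higher SR9011 interactions, beside 15.3% and 16.6% of all genes. Slc5a3 went the other way at 12.9, 8.32 and 11.3 FPKM with both, an interaction of 1.47 ± 0.20. Slc7a2, whose TGFb difference was 1.53 without and 1.62 with SR9011, had an interaction of 0.09 ± 0.13 (limma adjusted p = 0.64).

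Transport genes outside the Slc symbols were read from a list of 28 genes, of which 24 were tested. TGFb raised 6 and lowered 10 of them, SR9011 raised 16 and lowered 6, CLK8 raised 16 and lowered 4, and SB431542 raised 5 and lowered 2. Over all genes the shares higher and lower were 20.5% and 34.4%, 40.7% and 28.3%, 30.3% and 13.6%, and 11.9% and 5.05% in these 4 comparisons. Ucp2, an uncoupling protein related to the Slc25 carriers, had means of 0.787 FPKM in vehicle and 8.45 with TGFb (2.40, limma adjusted p = 1.6e-14), 0.613 with SB431542+TGFb and 3.39 with SR9011+TGFb. The lysosomal carrier Mfsd1 had means of 59.3 FPKM in vehicle and 131 with SR9011 (1.13, limma adjusted p = 3.6e-12). The mitochondrial pyruvate carrier subunits Mpc1 and Mpc2 rose with CLK8 by log2 fold changes of 0.33 and 0.38.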

How the data were processed

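RNA of 24 EMS404 libraries, 3 in each of 8 groups given by the labels, was measured by RNA-seq. The authors deposited 1 table of FPKM, and no read count was used here. The submitters' processing notes name HISAT2 2.0.4, Bowtie2 2.2.5, RSEM, DESeq2 and the mm10 build, with no roles given. Per the labels' protocols, RNA came from 1 of 2 kits depending on sample abundance, and samples with low RNA integrity were discarded. The labels do not tie kits to samples, so a kit effect cannot be told apart from the groups.

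Of 16620 lines, 16 lines of 8 identifiers that occur on 2 lines were left out. Symbols came from a table of Ensembl names (43 identifiers had none), and biotypes, positions and overlaps from GENCODE M21. FPKM was transformed to log2(FPKM + 1). limma 3.58.1 (R 4.3.3, trend and robust) was fitted to 11297 genes with 1 FPKM or more in 3 libraries, as 1 model over the 8 groups (16 residual degrees of freedom), with Benjamini-Hochberg adjustment within each of 10 comparisons. The script was tested on simulated data. Alternatives were pseudocounts of 0.1 and 0.5, no filter, a filter at 5 FPKM, TPM, quantile normalization, no trend, the compared groups alone, a replicate block, and each library left out. The Slc genes, the lists and the rule for named genes were chosen with earlier results of these data known. The rule named the 6 largest called rises and falls without overlap in each comparison of 2 groups, the 4 largest interactions each way for each compound, the 2 highest genes of each role class, and a list of well-known carriers. A carrier on that list is not reported here. Slc35e2 was named after its values were seen, and 4 genes named for a carrier were put in a class of their own after the members were known. Depth per library is known only relatively, from the steps of low FPKM values, so no counting interval is given.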

Additional observations from a re-analysis of the deposited data

Results flagged for a closer look

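For the 24 values here the effect of TGFb with a compound differed from that without it by limma's test of the interaction (adjusted p under 0.05), and each is the 4 largest per compound and direction, on the log2(FPKM + 1) scale.

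With SB431542, Slc26a11 had an interaction of 1.48, Slc25a23 of 1.04, Slc48a1 of 0.94 and Slc30a1 of 0.87. These 4 genes fell with TGFb alone. Slc7a2 had -1.23, Slc6a6 -1.14, Slc45a3 -1.05 and Slc25a32 -0.97, and these 4 rose with TGFb alone. The interaction contains the same TGFb and vehicle libraries as those changes.

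With SR9011, Slc5a3 had an interaction of 1.47, Slc16a3 of 0.77, Slc26a11 of 0.59 and Slc25a23 of 0.51. That of Slc16a3 did not pass when TGFb replicate 1, vehicle replicate 2 or 3, or SR9011 replicate 3 was left out. Slc1a4 had -1.24, Slc6a9 -1.19, Slc45a3 -0.91 and Slc25a33 -0.89.

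With CLK8 the values were smaller. Slc9a3r1 had 0.45, Slc26a11 0.36, the organic cation family member Slc22a23 0.33 and the aspartate/glutamate carrier Slc25a12 0.29. Slc46a3 had -0.55, Slc38a1 -0.44, Slc35g1 -0.40 and Slc35d1 -0.37. The interaction of Slc46a3 did not pass with a pseudocount of 0.1, and those of Slc46a3 and Slc38a1 did not pass on TPM.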

How the results depend on the processing

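The count of called Slc genes stayed within 1.5 times its value under each alternative tried, with the exceptions given here. The interaction of CLK8 with TGFb was called in 11 genes on TPM and 28 with the 4 groups alone, and in 10 to 16 with 1 library left out. For SB431542 against vehicle, leaving out 1 library gave 25 to 35 genes. The same range was 87 to 93 for TGFb, 123 to 129 for SR9011 and 86 to 99 for CLK8 against vehicle. Among named genes, the log2 difference of Slc25a4, TGFb vs vehicle, turned from -0.11 to 0.0233 under quantile normalization, and the cause was not tested. Of 445 called changes of named genes, 35 no longer passed on TPM, 28 under quantile normalization, 21 with the compared groups alone and 19 without a filter, which tests more genes. The mean squared deviation of SR9011 libraries from their group mean, 0.00925 to 0.0192, was above that of all other libraries, at most 0.00891. The main model takes 1 spread over the 8 groups, so the standard errors of SR9011 comparisons may be too small. With the compared groups alone, SR9011 against vehicle was called in 115 Slc genes, beside 128, and the SR9011 interaction in 61, beside 68. All 3 same-numbered correlations were over 0.1 in 2 of 28 pairs of groups, SB431542+TGFb with CLK8+TGFb and SB431542 with SB431542+TGFb (0.415, 0.208 and 0.117). The latter pair enters the SB431542 interaction, which was called in 66 genes with a replicate block, 37 higher and 29 lower, beside 65 without it. The block gave 100 called genes for TGFb, 42 for SB431542, 129 for SR9011 and 97 for CLK8 against vehicle, and 17 for the CLK8 interaction.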
